A study of Mus musculus with 15 samples.

Results

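The genes described here are 39 genes of the ATF4 stress response and of amino acid supply, followed in 3 kinds of mouse CD4 T cells by RNA sequencing. They were chosen by name, as stress factors, enzymes of serine, one-carbon, proline and asparagine synthesis, and amino acid transporters. Earlier results of these data were known when the list was chosen. All 39 were found by Entrez ID among the 27179 genes of the count table, and all 39 were among the 12591 genes that passed the filter on low counts. Some passed it through their Th1 libraries, such as Slc7a11, which had 1 count in all Tfh libraries together. Atf3, Nupr1, Chac1, Stc2, Pycr1, Cth and Slc7a3 were also near 0 outside Th1, with mean levels of at most 1.69 CPM in Th17 and 0.892 CPM in Tfh. Cbs was low in every condition, with a mean of 1.68 CPM in Th1. Genes this low elsewhere could be called lower than Th1 but hardly higher, and the counts of calls and the medians below include them.

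Naive CD4 T cells of the genotype B6.Cg-Ifngtm3.1Lky-Il17atm1.1Lky spent 3.5 days in cRPMI culture on plates coated with antibodies to CD3 and CD28. The 3 culture conditions were Th1, Th17 and Tfh, the T follicular helper condition, with 5 libraries of each. All groups shared these altered Ifng and Il17a alleles, the stimulus and the sort into Trizol LS. The design text gives the Th1 sort as positive for interferon gamma and names a sort of CXCR5 positive, IL-17A negative Tfh cells on 2 of its 3 entries, while no source used here gives the Th17 gate, the cytokines added or the age of the mice. The title concerns how TGF-β sets Tfh against Th17 fate by way of c-Maf. Whether the 5 libraries of a condition are separate mice or cultures is not labelled, and the p-values therefore reflect library spread alone, which may be technical. In bulk RNA, fewer expressing cells and less RNA per cell cannot be told apart.

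When amino acids run short, uncharged tRNA activates the kinase GCN2, which phosphorylates the translation factor eIF2. General translation then drops while ATF4 mRNA is translated more, and ATF4 binds with C/EBP partners to composite sites, called CARE, in genes that make, import and charge amino acids. Other eIF2 kinases feed the same step from stress of the endoplasmic reticulum, haem shortage or double-stranded RNA, and growth signals through mTORC1 also raise ATF4. Activated T cells lean on these genes because they take up large amounts of amino acids to grow.

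Promoter sequences of 33 of the 39 genes were at hand, from RefSeq on the GRCm38.p6 build, each from 250 bases before to 50 bases after an annotated start. The CARE core was searched as TGATGNAA on both strands, and 10 of the 33 genes (30.3%) held it, against 269 of 9626 tested genes (2.79%) and 3.97% of all 32851 promoter windows of this length. The 10 were Atf3, Nupr1, Trib3, Chac1, Vldlr, Asns, Pycr1, Got1, Slc1a4 and Slc7a11. This is the motif through which ATF4 is known to act, and it was more frequent among the members than among tested genes. The members were chosen as genes of the ATF4 stress response and amino acid supply, so that difference may follow from the choice. The 6 sites, in 5 of the 10 genes, that lay upstream of the start and outside annotated exons are given here. They are shown as 40 bases along the gene's strand with the match in capitals. They lie at chr1:191183420-191183459 (Atf3, minus strand), chr2:119351033-119351072 (Chac1, plus strand), chr3:50443656-50443695 and chr3:50443637-50443676 (Slc7a11, minus strand), chr11:120643828-120643867 (Pycr1, minus strand) and chr19:43524684-43524723 (Got1, minus strand).
Atf3: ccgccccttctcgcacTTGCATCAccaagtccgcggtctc
Chac1: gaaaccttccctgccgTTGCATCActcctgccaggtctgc
Slc7a11, distal site: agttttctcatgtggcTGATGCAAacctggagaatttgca
Slc7a11, proximal site: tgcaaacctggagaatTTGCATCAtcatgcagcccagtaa
Pycr1: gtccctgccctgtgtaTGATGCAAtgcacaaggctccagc
Got1: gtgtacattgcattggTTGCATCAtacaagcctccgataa

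The Atf3, Chac1 and Got1 sites read the core on the opposite strand, and the paired Slc7a11 sites lie 66 and 47 bases before the start in opposite orientations. In Asns the match was TGATGAAA, beginning 23 bases before the RefSeq start, and the window around it touched an exon of GENCODE M21. Among the other members with a promoter, 23 held no match in this window, Atf4 itself, Psat1, Phgdh and Mthfd2 among them. The CRE motif TGACGTCA was in the window of 1 member, Ppp1r15a (3.64% of tested genes held it), and the E-box CACGTG in those of Nupr1, Cbs and Aldh18a1 (11.9% of tested genes). A match describes letters and is not a measured binding site.

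Most of these genes were higher in Th1 cells than in either other kind. Against Th1, 31 of 39 were called lower in Th17 cells and 32 of 39 in Tfh cells (edgeR, adjusted p under 0.05 over all genes tested), where 17.8% and 25.2% of all tested genes were called lower. Only 2 of 39 were called higher in each, against 19.0% and 24.1% of all genes, and both times these were the transporters Slc7a6 and Slc38a1. Their median log2 fold change was -1.67 in Th17 against Th1 and -2.06 in Tfh against Th1, where all genes had medians of 0.03 and -0.01. The 5 libraries of Th17 lay wholly below the 5 of Th1 for 27 genes (14.3% of all genes) and wholly above for 2 (14.5%). Those of Tfh lay wholly below Th1 for 30 (18.2%) and wholly above for 2 (16.1%). The same Th1 libraries stand on one side of both comparisons, so they are not separate evidence. Because the list was chosen with earlier results of these data known, its shares beside those of all genes are a description and not a test.

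Tfh and Th17 cells differed less. Of the 39 genes, 16 were called lower and 3 higher in Tfh than in Th17 cells, where 9.98% and 6.8% of all genes were called lower and higher, and the median was -0.70 against -0.01 for all genes. Libraries did not overlap for 12 genes lower in Tfh (8.72% of all genes) and for 1 gene higher in Tfh (5.74%). With offsets for transcript GC content the split of calls over all genes between Tfh and Th17 moved from 40.5% to 58.5% higher, and the members called higher in Tfh went from 3 to 6, still with 16 lower.

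**Figure D1:**
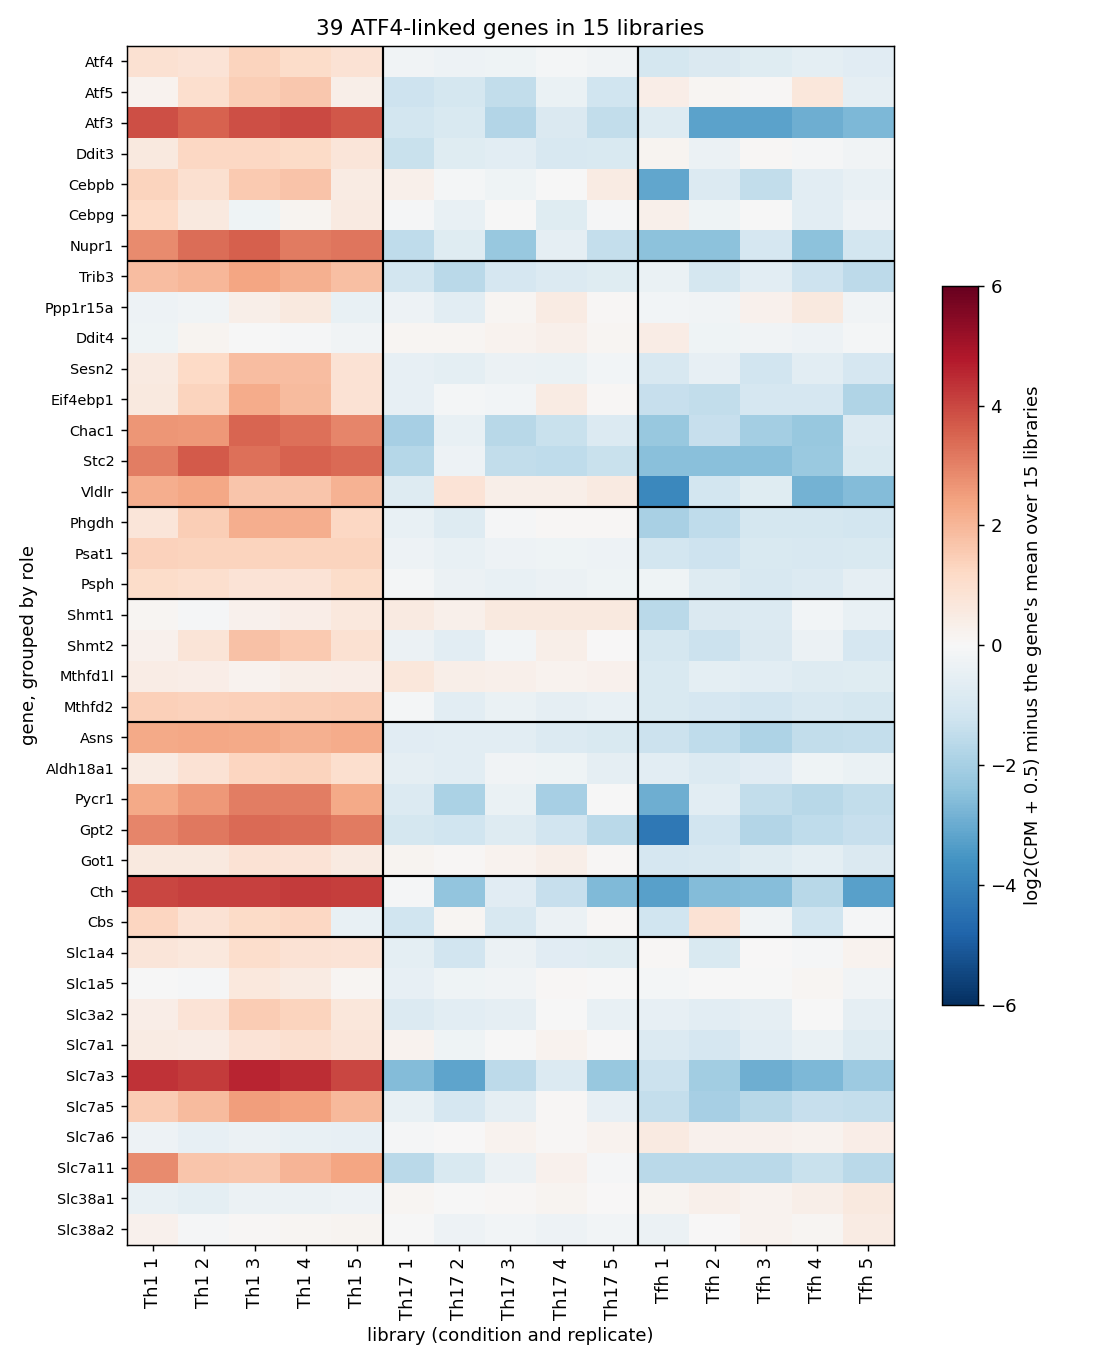
Levels of the 39 genes (rows, grouped by role) in 15 libraries (columns), as log2(CPM + 0.5) minus the gene's mean over all libraries, with red above and blue below that mean. The Th1 block is red in most rows, and the rows of Slc7a6 and Slc38a1 run the other way.

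Across the 3 conditions the genes fell into a few orders. In 14 genes the level was highest in Th1, intermediate in Th17 and lowest in Tfh, with all 3 differences called: Atf4, Atf3, Eif4ebp1, Vldlr, Phgdh, Psat1, Shmt2, Mthfd2, Asns, Got1, Cth, Slc7a1, Slc7a5 and Slc7a11. In 13 genes Th1 was higher than both others, and the difference of Tfh from Th17 did not pass: Cebpb, Cebpg, Nupr1, Trib3, Sesn2, Chac1, Stc2, Psph, Aldh18a1, Pycr1, Gpt2, Slc3a2 and Slc7a3. In 3 genes, Atf5, Ddit3 and Slc1a4, Tfh lay between Th1 and Th17. Shmt1 and Mthfd1l were lower in Tfh alone, Slc7a6 and Slc38a1 were lower in Th1 alone, Slc1a5 differed in the call of Th17 against Th1, and Ppp1r15a, Ddit4, Cbs and Slc38a2 were called in no comparison.

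**Figure D2:**
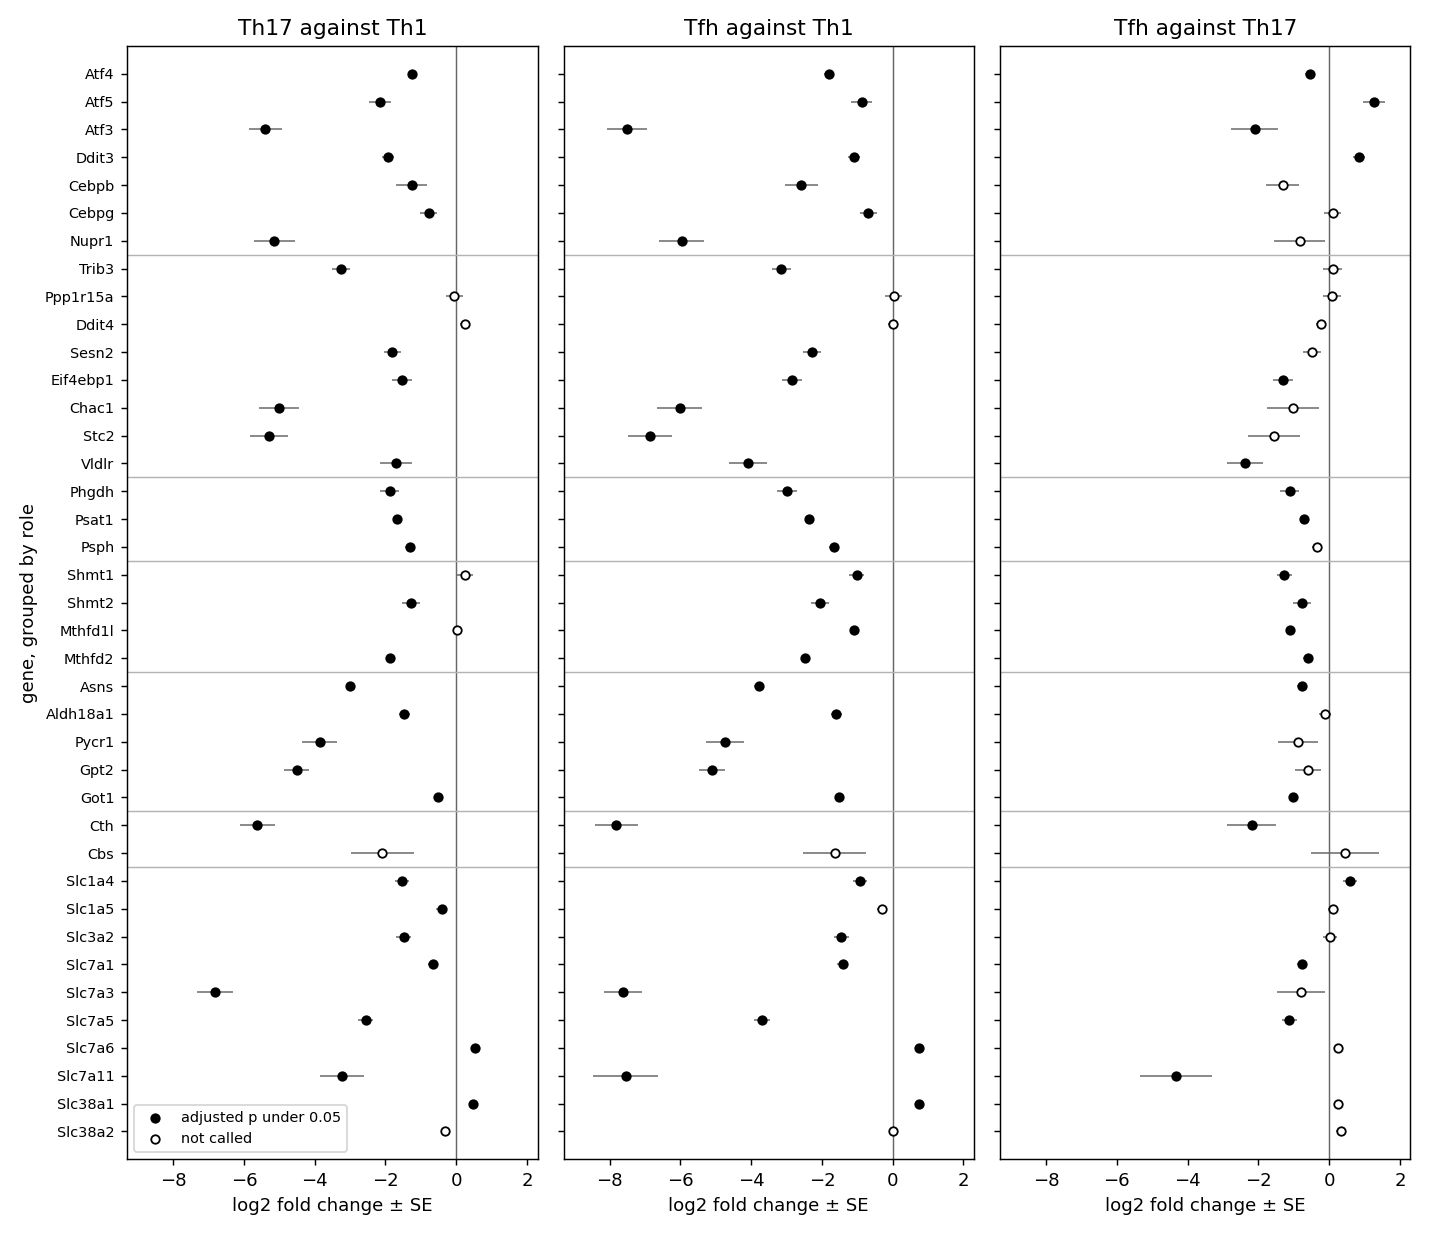
Log2 fold changes with their standard errors for the 39 genes, grouped by role, in the 3 comparisons, where filled points passed the edgeR test and open points did not. In the left and middle panels, which share the Th1 libraries, most points lie left of 0, and the right panel lies closer to 0.

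Among the transcription factors, Atf4 (gene ID 11911; chr15:80255184-80257545) was at 479, 446, 648, 545 and 456 CPM (CPM are counts scaled to a common library size after TMM normalisation) in Th1 replicates 1 to 5. It was at 217, 206, 209, 232 and 215 CPM in the Th17 libraries and at 123, 139, 154, 166 and 155 CPM in the Tfh libraries. The 3 groups did not overlap, and the Th17 libraries were the closest together. The mRNA was 2.38-fold lower in Th17 than in Th1 (-1.25 ± 0.12, a log2 fold change with its SE over 5 libraries a condition, edgeR adjusted p = 1.72e-07), 3.50-fold lower in Tfh than in Th1 (-1.81 ± 0.13, edgeR adjusted p = 8.93e-10) and 1.47-fold lower in Tfh than in Th17 (-0.55 ± 0.12, edgeR adjusted p = 0.00386). ATF4 is set largely by translation, which these data do not measure.

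Atf3 (11910; chr1:191170296-191183333), an ATF4 target that encodes another stress factor of the same family, was near 0 outside Th1. Its Th1 libraries held 65.7, 52.0, 66.3, 70.9 and 59.5 CPM, its Th17 libraries 1.64, 1.91, 0.850, 1.98 and 1.13 CPM, and its Tfh libraries 2.13, 0, 0, 0.0995 and 0.198 CPM. A count of 0 allows up to 3 counts, which is from 0.127 to 0.580 CPM, depending on a library's depth (counting error only). Tfh replicate 1, the shallowest library, carried most of the Tfh counts. The log2 fold change was -5.39 ± 0.47 in Th17 against Th1 (edgeR adjusted p = 3.79e-08) and -7.50 ± 0.57 in Tfh against Th1 (edgeR adjusted p = 3.87e-09), or -9.49 without Tfh replicate 1. Between Tfh and Th17 it was -2.11 ± 0.66 (edgeR adjusted p = 0.0351) and moved to -4.10 without Tfh replicate 1. That call was lost with DESeq2 (adjusted p = 0.0765), in a fit of these 2 conditions alone (edgeR adjusted p = 0.194), and without any of 7 single libraries: Th17 replicates 1, 2 and 4 and Tfh replicates 2, 3, 4 and 5 (edgeR adjusted p from 0.0615 to 0.0963).

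Ddit3 (13198; chr10:127290793-127296291), which encodes CHOP, the factor that links lasting stress to cell death, did not follow Atf4 between Tfh and Th17. Its libraries held 57.3, 88.8, 90.3, 83.6 and 63.4 CPM in Th1, 14.6, 22.9, 24.5, 19.1 and 19.8 CPM in Th17, and 42.7, 29.8, 39.5, 36.1 and 32.8 CPM in Tfh. The lowest Tfh library lay above the highest Th17 library, and the Th1 libraries lay above both groups. Ddit3 was 1.79-fold higher in Tfh than in Th17 (0.84 ± 0.17, edgeR adjusted p = 0.00241) and was the 1 member without overlap in that direction. Per length and within each library, the ratio of Ddit3 to Atf4 was 0.291 ± 0.0580 in Th1, 0.182 ± 0.0394 in Th17 and 0.484 ± 0.112 in Tfh (SD, n = 5), so CHOP mRNA took its largest share beside Atf4 in Tfh cells. By exon in GENCODE M21, 20.9% of the Ddit3 transcript overlaps other genes, among them Mars1 on the opposite strand, which was at 81.5, 45.4 and 34.8 CPM in Th1, Th17 and Tfh. No source used here gives the strand setting of the counting.

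Atf5 (107503), a related stress factor, showed the same order as Ddit3, with 17.1, 29.6, 41.3, 45.7 and 18.9 CPM in Th1, 5.85, 6.77, 4.84, 10.9 and 6.01 CPM in Th17, and 19.1, 15.8, 15.4, 23.7 and 9.78 CPM in Tfh. The Tfh libraries overlapped both other groups. Atf5 was 2.43-fold higher in Tfh than in Th17 (1.28 ± 0.31, edgeR adjusted p = 0.00785) and 1.83-fold lower than in Th1 (-0.87 ± 0.30, edgeR adjusted p = 0.0221). The second call was lost without Th1 replicate 3 (edgeR adjusted p = 0.0569), Th1 replicate 4 (0.0630) or Tfh replicate 5 (0.0544).

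Nupr1 (56312), a small stress-induced chromatin protein, held 19.2 to 32.7 CPM in Th1 libraries, at most 1.41 CPM in Th17 and at most 0.899 CPM in Tfh, where 3 libraries had no count. Its log2 fold change in Tfh against Th1 was -5.97 ± 0.63 (edgeR adjusted p = 2.93e-07), or -6.71 without Tfh replicate 3. Cebpb and Cebpg encode dimer partners of ATF4. Cebpb (12608) was at 9.95 ± 3.25 CPM in Th1, 4.14 ± 1.07 CPM in Th17 and 1.599 ± 1.07 CPM in Tfh (SD, n = 5), and Cebpg (12611) at 73.3 ± 28.2, 42.4 ± 8.76 and 45.5 ± 11.1 CPM. Both were called lower than Th1 in both other conditions. For Cebpg the libraries overlapped, and its call in Tfh against Th1 was lost without Th1 replicate 1 (edgeR adjusted p = 0.0826) or Tfh replicate 4 (0.0612). The Th17 against Th1 call of Cebpb was lost without any of Th1 replicates 3 and 4 and Th17 replicates 2, 3 and 4 (edgeR adjusted p from 0.0501 to 0.0673). In GENCODE M21, 20.7% of its exon bases overlap Tmem189 on the other strand, but the RefSeq spans of these genes do not overlap. Between Tfh and Th17, Cebpb did not pass (-1.32 ± 0.47, edgeR adjusted p = 0.0644), although it did with DESeq2 (adjusted p = 0.0128) and without Tfh replicate 1 (-1.05, edgeR adjusted p = 0.0488).

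The feedback and growth regulators split. Trib3 (228775), a pseudokinase that restrains ATF4 and CHOP, held 27.8, 30.5, 39.4, 33.5 and 26.5 CPM in Th1, 2.01 to 4.10 CPM in Th17 and 2.07 to 5.41 CPM in Tfh. It was 9.54-fold lower in Th17 (-3.25 ± 0.27) and 8.87-fold lower in Tfh (-3.15 ± 0.27; edgeR adjusted p = 1.42e-08 and 1.53e-08), with no called difference between the latter. Chac1 (69065), which degrades glutathione, held 14.1 to 27.1 CPM in Th1, 0.117 to 1.27 CPM in Th17 and 0 to 0.889 CPM in Tfh. Its log2 fold change in Tfh against Th1 was -6.01 ± 0.63, or -7.26 without Tfh replicate 5, and -5.00 ± 0.57 in Th17 against Th1. Stc2 (20856), a secreted glycoprotein induced by stress, held 23.3 to 36.0 CPM in Th1, 0.351 to 1.80 CPM in Th17, and no count in 3 Tfh libraries, with -6.85 ± 0.62 in Tfh against Th1, or -9.53 without Tfh replicate 5. Between Tfh and Th17, Stc2 did not pass (-1.56 ± 0.74, edgeR adjusted p = 0.170), but it passed without Tfh replicate 5 (-4.20, edgeR adjusted p = 0.00272).

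Eif4ebp1 (13685; chr8:27260327-27275656), which encodes 4E-BP1, the mTORC1-controlled brake on cap-dependent translation, held 179, 293, 555, 443 and 217 CPM in Th1. It held 82.3, 108, 104, 166 and 123 CPM in Th17 and 45.2, 42.5, 57.3, 57.3 and 33.5 CPM in Tfh. The groups did not overlap, although Th1 replicates 3 and 4 lay far above the other 3 Th1 libraries. It was 7.15-fold lower in Tfh than in Th1 (-2.84 ± 0.29, edgeR adjusted p = 1.58e-07) and 2.47-fold lower than in Th17 (-1.30 ± 0.27, edgeR adjusted p = 0.00253). Sesn2 (230784), a leucine-sensing inhibitor of mTORC1, was at 31.9 ± 12.6 CPM in Th1, 9.15 ± 1.16 CPM in Th17 and 6.60 ± 1.37 CPM in Tfh. Vldlr (22359), a lipoprotein receptor on the ATF4 target list, was at 28.5 ± 5.85, 8.63 ± 3.05 and 1.57 ± 1.67 CPM, and its log2 fold change in Tfh against Th1 was -4.09 ± 0.53, or -4.84 without Tfh replicate 3. In Tfh against Th17 it was -2.37 ± 0.51 (edgeR adjusted p = 0.00337), or -3.08 without that library.

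A pair of stress genes stood apart from this. Ppp1r15a (17872), which encodes GADD34, the phosphatase subunit that reverses eIF2 phosphorylation, was at 26.6 ± 8.86 CPM in Th1, 25.7 ± 7.58 CPM in Th17 and 27.1 ± 7.12 CPM in Tfh. Its log2 fold changes were -0.05 ± 0.25 in Th17 against Th1, 0.03 ± 0.25 in Tfh against Th1 and 0.08 ± 0.25 in Tfh against Th17. Ddit4 (74747), which encodes the mTORC1 inhibitor REDD1, was at 130 ± 15.3, 155 ± 9.25 and 131 ± 32.1 CPM, and the highest of its 15 values, 188 CPM, was that of Tfh replicate 1. Neither passed in any of the 3 comparisons, although Ddit4 was called lower in Tfh than in Th17 without Tfh replicate 1 (-0.40, edgeR adjusted p = 0.0220) and higher in Th17 than in Th1 with the replicate block and GC offsets (0.36, edgeR adjusted p = 0.00801). A test that did not pass does not show equal levels.

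The 3 enzymes that make serine from a glycolytic intermediate were all lower outside Th1. Psat1 (107272; chr19:15905123-15925059), the middle enzyme, held 488, 486, 486, 486 and 474 CPM in Th1, 154, 138, 153, 161 and 154 CPM in Th17, and 88.7, 79.5, 100.3, 98.2 and 102 CPM in Tfh. The coefficient of variation of its 5 Th1 values, 1.22%, was the lowest of the 39 members in any condition. It was 3.18-fold lower in Th17 (-1.67 ± 0.10, edgeR adjusted p = 2.55e-10) and 5.16-fold lower in Tfh (-2.37 ± 0.11, edgeR adjusted p = 1.81e-12) than in Th1. Phgdh (236539; chr3:98313171-98339969), the first and committed enzyme, held 53.4, 90.7, 147, 144 and 75.9 CPM in Th1, 18.5 to 33.4 CPM in Th17 and 7.93 to 15.1 CPM in Tfh. Its 3 groups did not overlap, and it was 7.99-fold lower in Tfh than in Th1 (-3.00 ± 0.28). Copies with at least 95% identity in 11 other genes, most of them pseudogenes, cover 89.5% of the Phgdh transcript, so its count is uncertain. Psph (100678), which completes the pathway, was at 101 ± 9.78, 40.8 ± 3.60 and 32.1 ± 6.64 CPM. It was called lower in both comparisons with Th1 and not between Tfh and Th17 (-0.35 ± 0.15, edgeR adjusted p = 0.113). Without Tfh replicate 1, Psph was called lower in Tfh than in Th17 too (-0.47, edgeR adjusted p = 0.0215). The exon overlap of Psph with Cct6a on the opposite strand is 26.1% of its bases in GENCODE M21.

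One-carbon enzymes take the carbon of serine into folate, for purines, thymidylate and formate. The mitochondrial pair was higher in Th1: Mthfd2 (17768; chr6:83305704-83326011) held 274, 260, 276, 277 and 289 CPM in Th1, 92.7, 64.5, 77.2, 70.2 and 73.4 CPM in Th17, and 53.0, 50.004, 45.6, 51.9 and 47.5 CPM in Tfh. None of its groups overlapped, and it was 3.64-fold lower in Th17 than in Th1 (-1.86 ± 0.12) and 1.53-fold lower in Tfh than in Th17 (-0.61 ± 0.11, edgeR adjusted p = 0.00103). Shmt2 (108037), which feeds it, was at 299.5 ± 122 CPM in Th1, 123 ± 31.3 CPM in Th17 and 71.8 ± 18.9 CPM in Tfh, and was 4.17-fold lower in Tfh than in Th1 (-2.06 ± 0.26). Its call between Tfh and Th17 (-0.77 ± 0.25, edgeR adjusted p = 0.0434) was lost with RLE factors (0.0506), library size only (0.0544), limma-voom (0.0620) and without any of 9 single libraries: Th1 replicate 5, Th17 replicates 1, 3, 4 and 5, and Tfh replicates 1, 2, 3 and 5 (edgeR adjusted p from 0.0541 to 0.114).

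The partners of these enzymes had another order. Mthfd1l (270685), which releases formate from mitochondria, held 140, 134, 117, 130 and 135 CPM in Th1, 163, 132, 128, 119 and 122 CPM in Th17, and 53.5, 68.1, 65.6, 60.4 and 61.0 CPM in Tfh. Shmt1 (20425), the cytosolic counterpart of Shmt2, was at 27.7 ± 5.23, 32.8 ± 2.56 and 13.6 ± 4.96 CPM. For both, Th1 and Th17 overlapped and Tfh lay below both. Mthfd1l was 2.15-fold lower in Tfh than in Th17 (-1.10 ± 0.12, edgeR adjusted p = 5.63e-06) and Shmt1 2.40-fold (-1.26 ± 0.22, edgeR adjusted p = 0.000587). Per length, the ratio of Mthfd2 to Mthfd1l was 3.72 ± 0.301 in Th1, 1.01 ± 0.0841 in Th17 and 1.43 ± 0.206 in Tfh (SD, n = 5), and no condition overlapped another. The ratio of Shmt2 to Shmt1 was 13.6 ± 5.37, 4.63 ± 0.958 and 7.14 ± 2.45, where the Tfh libraries overlapped both other groups.

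Asns (27053; chr6:7675165-7693209), which makes asparagine and is a classic ATF4 target, held 336, 341, 330, 299.6 and 321 CPM in Th1. Its libraries held 42.1, 43.5, 43.5, 39.01 and 35.8 CPM in Th17 and 27.6, 23.0, 18.8, 24.4 and 25.3 CPM in Tfh. No groups overlapped, and the lowest Th1 library, at 299.6 CPM, lay far above the highest Th17 library. Asns was 7.98-fold lower in Th17 (-3.00 ± 0.13, edgeR adjusted p = 1.22e-12) and 13.7-fold lower in Tfh (-3.78 ± 0.13, edgeR adjusted p = 6.97e-14) than in Th1, and 1.72-fold lower in Tfh than in Th17 (-0.78 ± 0.12, edgeR adjusted p = 0.000177).

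Proline is made from glutamate by the enzymes of Aldh18a1 and Pycr1, with both genes lower outside Th1. Aldh18a1 (56454), the first step, was at 286 ± 63.7 CPM in Th1, 103 ± 14.2 CPM in Th17 and 95.04 ± 14.6 CPM in Tfh, and Pycr1 (209027), the last, at 24.6 ± 7.005, 1.67 ± 1.22 and 0.892 ± 0.709 CPM. Relative to Th1, Aldh18a1 was 2.77-fold lower in Th17 and 3.01-fold lower in Tfh, and Pycr1 14.5-fold and 26.7-fold lower. Neither passed between Tfh and Th17 (-0.12 ± 0.16 and -0.88 ± 0.55, edgeR adjusted p = 0.683 and 0.317). Gpt2 (108682), the mitochondrial enzyme that makes alanine from pyruvate and glutamate, held 72.6, 85.9, 103, 97.6 and 82.4 CPM in Th1, 2.61 to 5.10 CPM in Th17 and 0 to 3.81 CPM in Tfh. It was 22.7-fold lower in Th17 (-4.51 ± 0.35) and 34.3-fold lower in Tfh (-5.10 ± 0.37) than in Th1. Got1 (14718), the cytosolic aspartate aminotransferase, held 276 to 342 CPM in Th1, 198 to 241 CPM in Th17 and 94.3 to 125 CPM in Tfh. It was 2.01-fold lower in Tfh than in Th17 (-1.01 ± 0.12, edgeR adjusted p = 8.83e-06) and 1.43-fold lower in Th17 than in Th1 (-0.51 ± 0.11, edgeR adjusted p = 0.00157).

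Cth (107869; chr3:157894248-157925081), which releases cysteine in the transsulfuration pathway, was near 0 outside Th1 as well. It held 77.2, 80.5, 82.1, 85.9 and 84.0 CPM in Th1, 3.98, 0.423, 2.46, 1.32 and 0.261 CPM in Th17, and 0, 0.283, 0.327, 0.995 and 0 CPM in Tfh. Its log2 fold change was -5.62 ± 0.50 in Th17 against Th1 (edgeR adjusted p = 5.34e-08) and -7.81 ± 0.61 in Tfh against Th1 (edgeR adjusted p = 5.04e-09), or -8.80 without Tfh replicate 4. The difference of Tfh from Th17 (-2.19 ± 0.70, edgeR adjusted p = 0.0378; -3.18 without Tfh replicate 4) was lost with limma-voom (adjusted p = 0.114), with a replicate block and GC offsets together (0.0513), and without any of 6 single libraries: Th17 replicates 1 and 3 and Tfh replicates 1, 2, 3 and 5 (edgeR adjusted p from 0.0713 to 0.123). Cbs (12411), the enzyme before it, was at 1.68 ± 0.797 CPM in Th1, 0.380 ± 0.340 CPM in Th17 and 0.527 ± 0.636 CPM in Tfh. It passed in no comparison (edgeR adjusted p = 0.0761 in Th17 against Th1 and 0.134 in Tfh against Th1), although it was called lower in Tfh than Th1 without Tfh replicate 2 (-2.47, edgeR adjusted p = 0.0455), and lower in Th17 than in Th1 with DESeq2 (-2.19, adjusted p = 0.0467) and limma-voom (-2.35, adjusted p = 0.0466).

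**Figure D3:**
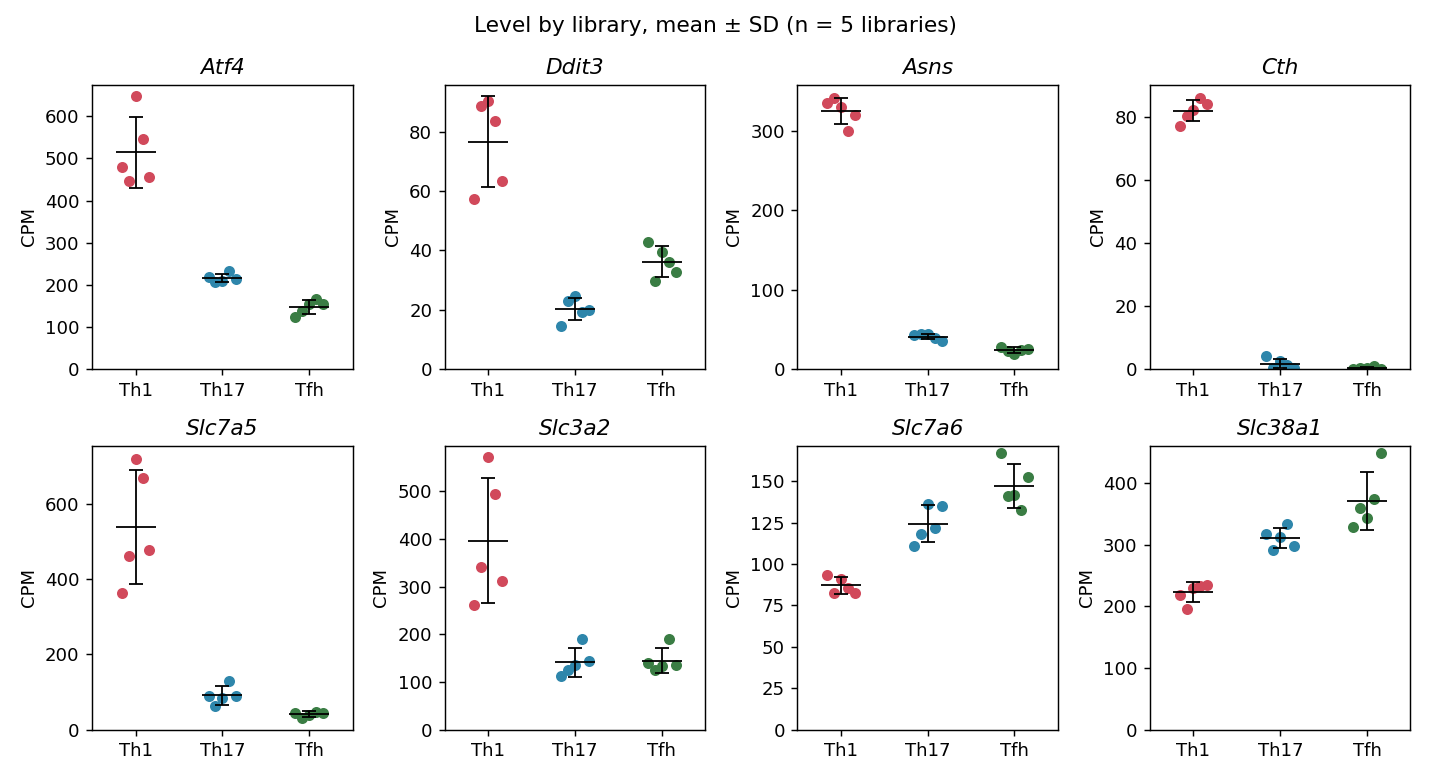
CPM of 8 members in the 5 libraries of each condition (points), with the mean and SD in black, on axes that start at 0. Atf4, Asns, Cth and Slc7a5 step down from Th1, Ddit3 is lowest in Th17, and Slc7a6 and Slc38a1 are lowest in Th1.

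Among the transporters, the genes of the leucine carrier LAT1 and its chain parted from each other. Slc7a5 (20539; chr8:121881146-121907686) encodes LAT1, which brings in large neutral amino acids, and held 362, 460, 719, 669 and 478 CPM in Th1, 89.7, 61.6, 85.1, 130 and 89.5 CPM in Th17, and 45.4, 30.9, 39.1, 47.9 and 45.4 CPM in Tfh. The 3 groups did not overlap. It was 5.90-fold lower in Th17 (-2.56 ± 0.21, edgeR adjusted p = 1.82e-08) and 12.9-fold lower in Tfh (-3.69 ± 0.22, edgeR adjusted p = 1.46e-10) than in Th1, and 2.18-fold lower in Tfh than in Th17 (-1.13 ± 0.21, edgeR adjusted p = 0.000866).

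Slc3a2 (17254; chr19:8706882-8723369) encodes CD98, the heavy chain that LAT1, y+LAT2 and xCT share, and held 260, 342, 572, 495 and 311 CPM in Th1, 111, 124, 136, 191 and 145 CPM in Th17, and 140, 125, 133, 190 and 135 CPM in Tfh. Th17 and Tfh overlapped throughout, and Slc3a2 was 2.74-fold lower in Tfh than in Th1 (-1.45 ± 0.21, edgeR adjusted p = 1.05e-05). Per length, the ratio of Slc3a2 to Slc7a5 within a library was 0.913 ± 0.0650 in Th1, 1.99 ± 0.354 in Th17 and 4.37 ± 0.620 in Tfh (SD, n = 5). The 3 groups of ratios did not overlap, and the Th1 ratios stayed between 0.816 and 0.995 although Slc3a2 itself ranged from 260 to 572 CPM there. Of the Slc3a2 transcript, 6.68% has near-identical copies in other genes.

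Slc7a6 and Slc38a1 ran against the rest. Slc7a6 (330836; chr8:106168219-106198714), which encodes y+LAT2, an exchanger of arginine for glutamine, held 93.3, 82.8, 90.9, 85.7 and 82.6 CPM in Th1, 111, 118, 136, 122 and 135 CPM in Th17, and 167, 141, 141, 133 and 153 CPM in Tfh. Slc38a1 (105727; chr15:96571418-96643438), which encodes SNAT1, a sodium-coupled glutamine carrier, held 219, 196, 229, 233 and 235 CPM in Th1, 317, 292, 312, 333 and 297 CPM in Th17, and 328, 360, 343, 375 and 448 CPM in Tfh. Both had every Th1 library below every other library. Against Th1, Slc7a6 was 1.43-fold higher in Th17 (0.51 ± 0.11, edgeR adjusted p = 0.00107) and 1.69-fold higher in Tfh (0.76 ± 0.11, edgeR adjusted p = 1.44e-05), and Slc38a1 1.39-fold (0.48 ± 0.11, edgeR adjusted p = 0.00170) and 1.67-fold higher (0.74 ± 0.11, edgeR adjusted p = 1.58e-05). Per length, Slc7a5 stood at 6.60 ± 1.80 times Slc7a6 in Th1, 0.786 ± 0.226 times in Th17 and 0.304 ± 0.0542 times in Tfh, so the light chain with the higher level beside CD98 was Slc7a5 in Th1 libraries and Slc7a6 in Tfh libraries. Between Tfh and Th17 neither passed (0.24 ± 0.11 and 0.26 ± 0.11, edgeR adjusted p = 0.151 and 0.115), but both were called higher in Tfh with DESeq2 (adjusted p = 0.0437 and 0.0241) and with GC offsets (edgeR adjusted p = 0.0133 and 0.00558).

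**Figure D4:**
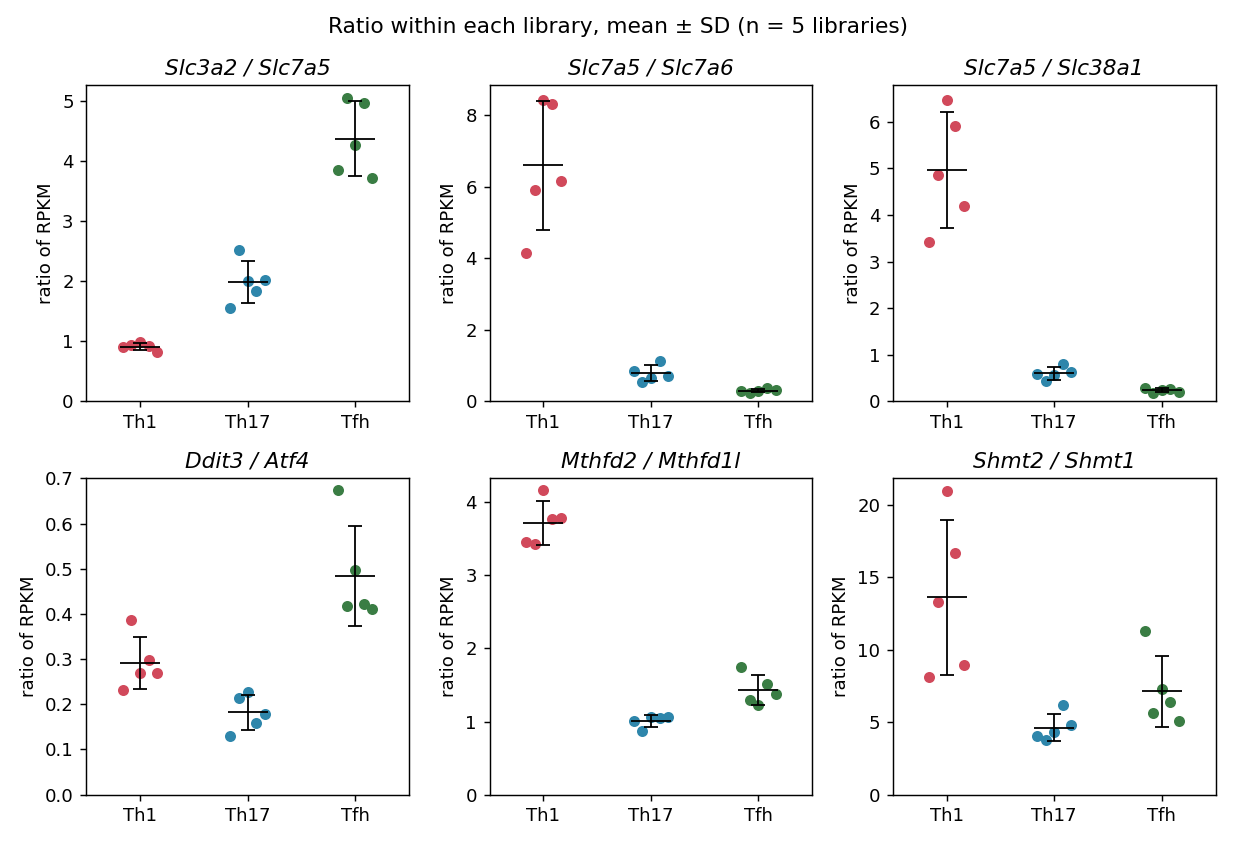
Ratios of per-length levels (RPKM) of 6 gene pairs within each of the 15 libraries (points), with mean and SD in black, on axes that start at 0. Slc3a2 to Slc7a5 climbs from Th1 to Tfh while Slc7a5 to Slc7a6 and Slc7a5 to Slc38a1 fall, and Ddit3 to Atf4 is highest in Tfh.

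Slc7a1 (11987), the common arginine and lysine carrier CAT1, was at 192 ± 29.5 CPM in Th1, 122 ± 16.7 CPM in Th17 and 72.1 ± 12.2 CPM in Tfh, with no overlap of groups and all 3 differences called. Slc7a3 (11989), the related CAT3, held 90.5, 81.8, 105, 95.6 and 72.8 CPM in Th1, 0.234, 0, 1.02, 2.07 and 0.436 CPM in Th17, and 1.35, 0.565, 0.0817, 0.199 and 0.494 CPM in Tfh. Its log2 fold change was -6.82 ± 0.50 in Th17 against Th1 (edgeR adjusted p = 3.32e-09; -7.62 without Th17 replicate 4) and -7.61 ± 0.54 in Tfh against Th1 (edgeR adjusted p = 1.52e-09). Per length, Slc7a3 stood at 32.4 ± 4.49 RPKM and Slc7a1 at 26.8 ± 4.11 RPKM in Th1, while in Tfh they stood at 0.196 ± 0.181 and 10.04 ± 1.70 RPKM.

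Slc7a11 (26570), the cystine carrier xCT, had few counts: 10.4, 4.26, 4.15, 5.72 and 7.32 CPM in Th1, 0, 0.318, 0.680, 1.32 and 0.958 CPM in Th17, and 1 count in Tfh, in replicate 4. By summed counts the Th1 level was 255 times the Tfh level (95% exact interval 45.6 to 10115, counting error only) and the Th17 level 31.0 times (5.22 to 1258). The call of Tfh against Th17 (edgeR adjusted p = 0.00646) was lost with limma-voom (adjusted p = 0.0749). Near-identical copies in 9 other genes, Tuba1a, Tuba1b and Tuba1c among them, cover 4.06% of the Slc7a11 transcript. Cth and Slc7a11, which supply cysteine by synthesis and by import, were both called highest in Th1 and lowest in Tfh.

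Slc1a4 (55963), ASCT1 for serine, alanine and cysteine, was at 60.5 ± 6.87 CPM in Th1, 21.0 ± 4.28 CPM in Th17 and 31.9 ± 8.29 CPM in Tfh. Its call in Tfh against Th17 (0.60 ± 0.20, edgeR adjusted p = 0.0429) was lost without a filter (0.0547), with limma-voom (0.0611), in a fit of these 2 conditions (0.0584) and without any of 9 single libraries: Th1 replicate 2, Th17 replicates 1, 2, 4 and 5, and Tfh replicates 1, 3, 4 and 5 (edgeR adjusted p from 0.0536 to 0.108). Slc1a5 (20514), the glutamine carrier ASCT2, was at 369 ± 86.2, 276 ± 40.8 and 299 ± 26.8 CPM, overlapping in all conditions. Its Th17 against Th1 call (-0.42 ± 0.15, edgeR adjusted p = 0.0365) was lost without any of Th1 replicates 3 and 4 and Th17 replicates 1 and 2 (edgeR adjusted p from 0.0625 to 0.104), with library size only (0.0548) and in the fit of 2 conditions (0.0670). Slc38a2 (67760), SNAT2, was at 336 ± 25.98, 272 ± 23.8 and 339.8 ± 68.5 CPM and passed in no comparison. It was called higher in Tfh than in Th17 without Tfh replicate 1 (0.42, edgeR adjusted p = 0.0196), with DESeq2 (adjusted p = 0.0432) and with GC offsets (edgeR adjusted p = 0.0180). In Th17 against Th1 it missed the threshold (-0.31 ± 0.13, edgeR adjusted p = 0.0781) but was called lower in 6 other settings: the strict filter (0.0407), RLE factors (0.0315), DESeq2 (0.0169), GC offsets (0.0430), the replicate block with GC offsets (0.00370) and the fit of 2 conditions (0.0387). It was also called lower there without Tfh replicate 1 or 5 (edgeR adjusted p = 0.0362 and 0.0338). Summed over the 10 transporters, the level was 2297 ± 407 CPM in Th1, 1360 ± 108 CPM in Th17 and 1448 ± 118 CPM in Tfh, and over all 39 genes 6259 ± 919, 2921 ± 215 and 2478 ± 162 CPM.

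Members with and without the CARE core in their promoter window were set side by side, with no test of the difference. In Tfh against Th1 their median log2 fold change was -4.41 (10 of 10 called lower) against -1.59 (18 of 23 called lower) for the members without a match. In Th17 against Th1 it was -3.24 (10 of 10) against -1.30 (16 of 23), and in Tfh against Th17 -0.94 (5 of 10) against -0.48 (8 of 23). The ranges overlapped, from -7.54 to -0.93 with and from -6.85 to 0.76 without the core in Tfh against Th1, and Stc2, Gpt2 and Atf4 were among the genes without it. With the core, Atf3, Nupr1, Chac1, Pycr1 and Slc7a11 were near 0 outside Th1, and the medians rest in part on them. Such genes could hardly be called other than lower than Th1. Stc2 and Cbs, without the core, were also near 0 there. Members with no promoter at hand, such as Cth, Slc7a3 and Slc7a5, are in neither group. Outside the members, the core was in 3.30% of genes called lower in Th17 than in Th1, 2.45% of those called higher and 2.61% of the rest. In Tfh against Th1 these shares were 3.30%, 2.77% and 2.37%, and in Tfh against Th17 they were 2.77%, 4.02% and 2.58%.

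Genes around the members were read from 8 lists, beside the shares of all tested genes called lower and higher: 17.8% and 19.0% in Th17 against Th1, 25.2% and 24.1% in Tfh against Th1, and 9.98% and 6.8% in Tfh against Th17. List counts are small and moved with the processing: 45 of 66 counts, those of marker lists included, moved by over 1.5 times in some alternative. Of 20 cytosolic aminoacyl-tRNA synthetases, which load tRNAs with amino acids, 17 were called lower and 0 higher in Tfh cells relative to Th1 (median -1.22), 15 lower and 1 higher in Th17 against Th1 (median -0.83), and 7 lower and 0 higher in Tfh against Th17 (median -0.39). Cars, which charges cysteine, was at 127 ± 11.3 CPM in Th1, 33.9 ± 2.88 CPM in Th17 and 24.2 ± 4.10 CPM in Tfh, and Iars, which charges isoleucine, at 270 ± 20.6, 112 ± 6.23 and 72.9 ± 4.47 CPM. Summed, the 20 genes stood at 4427 ± 80.6, 2628 ± 98.5 and 2033 ± 126 CPM, the same order as the members.

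The unfolded protein response did not follow the members against Th1, but between Tfh and Th17 its calls ran the same way. Of its 15 genes, 8 were called higher and 3 lower in Th17 than in Th1 (median 0.39), 4 higher and 4 lower in Tfh than in Th1 (median 0.07), and 0 higher and 6 lower in Tfh than in Th17 (median -0.32). Xbp1, the factor of its IRE1 arm, was at 564 ± 56.1 CPM in Th1, 384 ± 33.4 CPM in Th17 and 266 ± 42.6 CPM in Tfh, while the chaperone gene Dnajc3 was at 80.3 ± 19.6, 199 ± 39.1 and 197 ± 27.5 CPM. Among 13 eIF2 kinases, regulators, phosphatase subunits and eIF2B genes, 3 were called lower and 2 higher in Th17 against Th1 5 lower and 2 higher in Tfh against Th1, and 1 lower and 0 higher in Tfh against Th17. Ppp1r15b, the constitutive partner of Ppp1r15a, was at 235 ± 42.4, 129 ± 14.9 and 123 ± 17.0 CPM, Eif2ak2, the kinase PKR, at 54.6 ± 16.3, 23.7 ± 5.59 and 21.7 ± 9.18 CPM, and Eif2ak1, the haem-regulated kinase, at 59.5 ± 5.26, 99.2 ± 6.30 and 102 ± 13.6 CPM.

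Other amino acid transporters were more often called higher than lower against Th1. Of 15 tested, 7 were called higher and 2 lower in Th17 than in Th1, and 7 higher and 3 lower in Tfh than in Th1. Between Tfh and Th17, 2 were called higher and 0 lower in Tfh. All tested genes had 19.0% higher and 17.8% lower calls in Th17 against Th1, and 24.1% and 25.2% in Tfh against Th1. The lower calls of this list were below those shares. Slc43a2, the leucine carrier LAT4, was at 14.1 ± 4.86 CPM in Th1, 95.2 ± 20.3 CPM in Th17 and 133 ± 18.9 CPM in Tfh, and Slc16a10, the aromatic amino acid carrier TAT1, at 48.3 ± 3.10, 209.8 ± 30.4 and 362 ± 52.2 CPM. Both were called higher than Th1 in both other conditions, where Slc7a5 was called lower. Slc38a3, the glutamine carrier SNAT3, was at 10.9 ± 4.48 CPM in Th1 and 0.0905 ± 0.130 in Th17 and had no count in Tfh. With 3 counts set for all Tfh libraries together, its Th1 level would be 184 times its Tfh level. The exact 95% interval of the ratio starts at 149, so 184 is not a lower bound. Slc6a9, the glycine carrier GLYT1, was at 34.4 ± 18.7, 1.31 ± 0.743 and 0.907 ± 0.824 CPM.

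In 20 other one-carbon and purine genes, 5 were called lower and 3 higher in Th17 against Th1, 11 lower and 1 higher in Tfh against Th1, and 8 lower in Tfh against Th17. The mitochondrial formyl-folate dehydrogenase gene Aldh1l2, next to Mthfd2 in its pathway, was at 19.1 ± 4.503 CPM in Th1 and 0.153 ± 0.342 in Th17, with 2 counts in all Tfh libraries (Th1 over Tfh 403, 95% exact interval 111 to 3330). The cytosolic Mthfd1 was at 65.9 ± 7.81, 67.9 ± 4.55 and 37.9 ± 8.89 CPM, close to the order of Mthfd1l. Of 21 other amino acid and glutathione enzymes tested, 3 were called lower and 3 higher in Th17 against Th1, 8 lower and 2 higher in Tfh against Th1, and 7 lower in Tfh against Th17. Bcat1, which transaminates branched-chain amino acids, was at 179 ± 22.5, 81.6 ± 8.18 and 44.9 ± 18.4 CPM.

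Of 24 genes of mTORC1 and amino acid sensing tested, 4 were called lower and 3 higher in Th17 against Th1, 4 lower and 5 higher in Tfh against Th1, and 3 higher in Tfh against Th17. In both comparisons with Th1 these counts, and in Th17 against Th1 those of the one-carbon and purine genes and of the amino acid and glutathione enzymes, were near or below the shares of all genes. With GC offsets the mTORC1 genes called higher were 8 in Th17 against Th1, 11 in Tfh against Th1 and 6 in Tfh against Th17. The sestrins, which hold mTORC1 back, went in opposite directions: Sesn1 was at 14.9 ± 3.66 CPM in Th1, 49.6 ± 10.96 CPM in Th17 and 97.0 ± 14.97 CPM in Tfh and Sesn3 at 50.9 ± 7.95, 246 ± 15.03 and 339 ± 56.4 CPM, whereas the member Sesn2 was highest in Th1. Proliferation genes followed another order than the members: of 16, 8 were called higher and 0 lower in Th17 than in Th1, 11 lower and 3 higher in Tfh than in Th1, and 14 lower in Tfh than in Th17. Their summed level was 4611 ± 372 CPM in Th1, 6121 ± 350 CPM in Th17 and 3380 ± 337 CPM in Tfh. Their part in the members' differences was not tested.

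**Figure D5:**
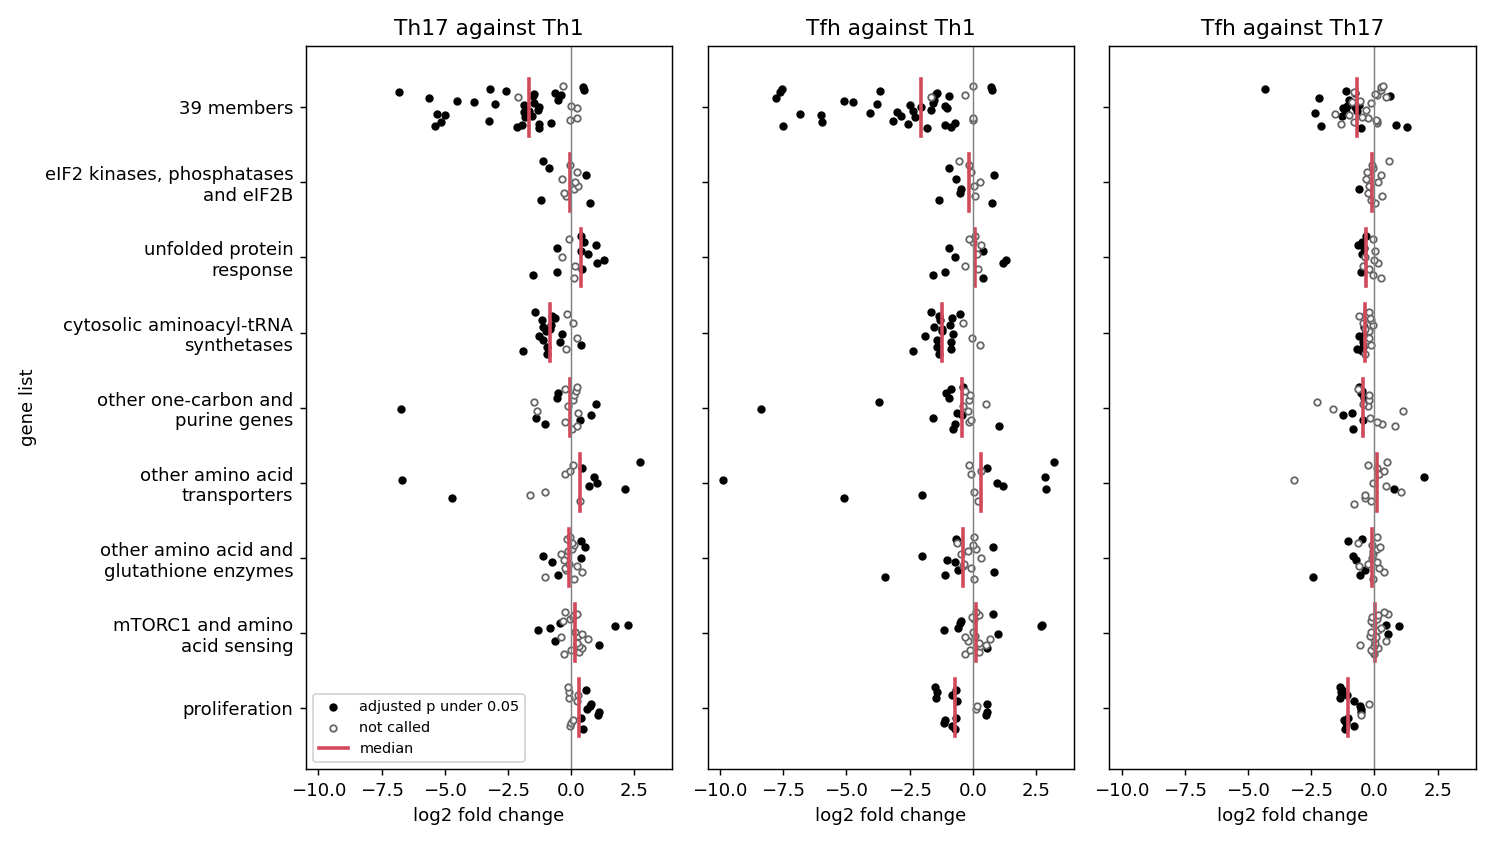
Log2 fold changes of the genes tested in the member set and 8 related lists in the 3 comparisons, with filled points for genes that passed the edgeR test and red bars for medians. The members and the aminoacyl-tRNA synthetases lie left of 0 in the left and middle panels, while the unfolded protein response and proliferation genes have medians above 0 in Th17 against Th1.

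Library totals spanned 4871468 counts (Tfh replicate 1) to 25200382 counts (Th1 replicate 3), with a median of 10501581. All 8 T cell markers were present in every library, with summed levels of 3941 to 4965 CPM in Th1, 6106 to 6911 CPM in Th17 and 6782 to 9287 CPM in Tfh. Markers of B cells summed to at most 2.59 CPM and those of myeloid cells to at most 3.09 CPM in any library, with Pax5 and S100a8 at 0 throughout. Cd8a was at 5.52 ± 3.49 CPM in Th1, 0.259 ± 0.389 CPM in Th17 and 0 CPM in Tfh, and Cd8b1 at 11.4 ± 3.90, 10.3 ± 3.54 and 7.34 ± 2.32 CPM, beside Cd4 at 593 ± 117 CPM in Th1. The 4 NK markers summed to 4.60 to 6.03 CPM in Th1, 2.17 to 4.67 CPM in Th17 and 0 to 2.12 CPM in Tfh. Ncr1 was at 0 throughout, and the others did not share an order. Most of the Th1 sum was Eomes, at 3.07 to 6.03 CPM in Th1. Eomes was at most 0.423 CPM in Th17 and 0.899 CPM in Tfh. Klre1 was at 0 to 1.53 CPM in Th1, 1.696 to 4.25 CPM in Th17 and 0 to 1.13 CPM in Tfh. Klrb1c was at 0 in Th1, and at most 0.741 CPM in Th17 and 0.654 CPM in Tfh. The part of CD8 and NK markers in the members' differences was not tested. Across 36 members, deviations from the Th1 mean had a Spearman's rho with transcript GC content of -0.67, -0.15, 0.68, 0.58 and -0.61 in replicates 1 to 5, given as a description of members that share libraries. Shmt2, Eif4ebp1, Phgdh, Slc3a2 and Slc7a5 were all highest in Th1 replicates 3 and 4. With GC offsets, 32 members were called lower than Th1 in Tfh cells and 32 in Th17 cells, where all genes had 3178 lower and 4239 higher calls in Tfh and 2611 lower and 3280 higher calls in Th17.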

How the data were processed

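RNA was sequenced from 15 libraries (Lexogen SENSE kit, 100 ng of RNA each, per the labels' protocols). The authors deposited raw counts per gene under Entrez IDs. The submitters' processing notes name STAR 2.7.2b, featureCounts 1.6.4 and mm10; neither the annotation nor the strand setting is given in the sources used here. The 15 single-library files held the same counts as the series table. No 2 libraries of a condition agreed within sampling noise (lowest chi-square per gene 9.39).

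The counts were tested with edgeR 4.0.16 (quasi-likelihood, robust) in R 4.3.3 after filterByExpr, with TMM factors (0.937 to 1.06) and all 15 libraries in 1 fit, at a Benjamini-Hochberg adjusted p of 0.05 over 12591 genes. CPM used TMM-scaled library sizes, and RPKM the longest protein-coding GENCODE M21 transcript. Symbols and coordinates are from RefSeq GRCm38.p6, and genes with a symbol held 98.2% of counts. On simulated data of 12396 genes, 75.5% of 2-fold changes were recovered in Tfh against Th17 and 87.8% in Tfh against Th1, but 16% and 8% of 1.5-fold changes. The simulation gave every gene a dispersion (spread between libraries beyond counting noise) of 0.05, below the common dispersion of the data, 0.0773. It also changed only a small set of genes, and in Tfh alone. These shares therefore do not give the power of the tests on the data. Intervals are exact, at 95%, and cover counting error only, since PCR reads are not independent molecules. Alternatives were other filters, RLE or no factors, DESeq2 1.42.0, limma-voom 3.58.1, GC offsets (loess span 0.5), a replicate block, a test above 1.5-fold (glmTreat), 2-condition fits and leaving out each library.

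Members and lists were chosen with earlier results of these data known. From each related list at most 3 genes per comparison were named: those with the largest called change, no overlap of libraries and at least 10 CPM in the higher condition; every member and marker could be named.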

Additional observations from a re-analysis of the deposited data

Results flagged for a closer look

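Each member's 5 values in a condition were checked for 1 that stood far from the rest, by Dixon's test at its 95% limit. For normally spread values chance flags about 1 in 20 such groups, and 7 of 117 were marked. The values were CPM without a log, and groups near 0, such as Slc7a11 in Tfh, do not meet that condition. In Tfh replicate 1, the shallowest library, Atf3 was at 2.13 CPM and Ddit4 at 188 CPM, both above the other Tfh libraries. Tfh replicate 4 was the highest Tfh library for Slc3a2, at 190.3 CPM, and the only one with a count for Slc7a11, at 0.0995 CPM. Stc2 stood high in Th17 replicate 2, at 1.80 CPM, and in Tfh replicate 5, at 0.988 CPM. Psat1 was at 474 CPM in Th1 replicate 5, a small step below the other Th1 libraries, which lay close together.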

How the results depend on the processing

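Over the settings other than leaving out 1 library, 1202 of 1275 log2 fold changes of members kept direction and side of the threshold, 20 gained a call, 36 lost one and 17 changed sign. No called value of a member changed sign. Between Tfh and Th17, 6 members were called higher with DESeq2, with GC offsets and with a replicate block and GC offsets, and 0 with the test above 1.5-fold, which called 7 lower. All genes called there went from 2113 to 3576 with GC offsets, 4126 with the replicate block and GC offsets, and 479 above 1.5-fold. The 1.5-fold test called 0 members higher in both comparisons with Th1, and took all genes called from 6206 to 3386 in Tfh against Th1 and from 4642 to 2119 in Th17 against Th1. The cause was not tested, beyond the stricter hypothesis of that test. Counts over the related lists and marker lists moved by over 1.5 times in 147 of 1716 comparisons with an alternative. GC offsets moved the median of all genes in Tfh against Th1 to 0.11.

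Without 1 library each, members called higher and lower between Tfh and Th17 ranged from 2 to 3 and from 13 to 17, and all genes called from 1613 to 2393. In Tfh against Th1 the ranges were 2 to 2, 31 to 33 and 5727 to 6344, and in Th17 against Th1 2 to 2, 29 to 32 and 4096 to 5055.

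Sign changes were in values near 0 that were not called in that comparison. In Tfh against Th1, Ddit4 was at -0.014 with the strict filter, -0.022 with RLE, -0.023 with DESeq2, -0.029 with limma-voom, -0.0036 with the replicate block and -0.0074 in the 2-condition fit. Slc38a2 was at -0.0088, -0.020, -0.019 and -0.0033 with the strict filter, RLE, DESeq2 and 2 conditions, and Ppp1r15a at -0.0052 with RLE and with DESeq2. In Th17 against Th1, Mthfd1l was at -0.029, -0.048 and -0.047 with the strict filter, RLE and DESeq2, and Ppp1r15a at 0.039 with GC offsets and 0.042 with the replicate block and GC offsets. Leaving out 1 library gave -0.34 to 0.80 for Cbs, -0.038 to 0.20 for Cebpg, -0.082 to 0.25 for Ppp1r15a, -0.089 to 0.18 for Slc3a2 and -0.060 to 0.27 for Trib3 in Tfh against Th17. It gave -0.15 to 0.073 for Ddit4, -0.13 to 0.17 for Ppp1r15a and -0.11 to 0.12 for Slc38a2 in Tfh against Th1, and -0.063 to 0.042 for Mthfd1l and -0.24 to 0.078 for Ppp1r15a in Th17 against Th1.

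Same-numbered libraries did not deviate together throughout: 8 of 15 correlations were over 0.1 (range -0.158 to 0.712), and 5 of 15 were the highest for their own number. With the replicate block, 3 members were called higher and 17 lower between Tfh and Th17, where Psph gained its call (edgeR adjusted p = 0.0303), 2 and 32 in Tfh against Th1, and 2 and 31 in Th17 against Th1; all genes called were 2941, 6923 and 5487.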
